A study of Mus musculus with 24 samples.

Results

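Replication-dependent histone genes encode the 4 core histones, H2A, H2B, H3 and H4, and the linker histone H1. They were taken as every row of the deposited tables whose symbol begins as H2ac, H2bc, H3c or H4c with a number, as an older Hist1 to Hist4 name, or is H1f1 to H1f6. This gave 67 of 55291 gene symbols: 6 for H1, 20 for H2A, 17 for H2B, 12 for H3 and 12 for H4. The testis gene H2ac1 is described apart, which leaves 66 genes in the class sums and 60 of the 61 tested genes in the counts below.

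Core histones wrap DNA into nucleosomes, and H1 binds where the DNA enters and leaves. Cells make these proteins mostly in S phase, when new DNA must be packed, from clustered genes without introns. Most of their mRNAs end in a stem-loop rather than a poly(A) tail. Stem-loop binding protein (Slbp) and the U7 small nuclear ribonucleoprotein direct the cut after the stem-loop. Testis forms of H2A, H2B and H1 (H2ac1, H2bc1 and H1f6) are known for replacing part of the somatic histones in male germ cells.

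The series holds 24 total RNA libraries, 2 for each of 12 groups, from E14Tg2a mouse embryonic stem cells of strain 129/Ola grown without feeders in serum, LIF and 2 kinase inhibitors. In all lines the endogenous CTCF, a DNA-binding protein that sets chromatin loop ends, carries an auxin-inducible degron. Each line also carries a doxycycline-inducible Ctcf transgene, either wild type or with 1 of 9 substitutions. The aim stated for the series was to set cells with a substituted transgene against cells with the wild-type transgene.

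WT UN is the wild-type-transgene line without treatment. WT IAA is the same line with 500 µM indole-3-acetic acid (IAA), which degrades endogenous CTCF. WT ID is the same line with IAA and 1 µg/ml doxycycline, so that the transgene replaces the degraded protein. R339Q, R342C, S354F, K365T, R377C, R377H, Q418R, R448Q and H455R ID are the lines with a substituted transgene, given the same 2 agents. All treatments lasted 2 days. Each substitution is present in 1 line, so substitution and line cannot be told apart. Nothing in the labels tells whether replicates are separate cultures, and the spread behind the p-values may therefore be technical.

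Recovered reads per library ran from 27.8 to 77.1 M, of which histone genes held 0.559 to 0.916%. Libraries were depleted of ribosomal RNA and not selected for poly(A), so stem-loop-ended mRNAs were in the input. All 10 pluripotent stem cell markers listed (Pou5f1, Sox2, Nanog and others) had reads in every library, with a summed level of 8780 to 11400 TPM (reads per gene length, scaled to a constant total per library). Ctcf mRNA counts the degron gene and the transgene together and so does not check protein loss. It was 125 to 160 TPM in the wild-type line, with 160 and 155 in WT ID. It was 278 and 284 TPM in R448Q, 261 and 270 in H455R, and 141 to 185 in the other substituted lines. Mitochondrial transcripts held 1.22 to 3.38% of reads.

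The stem-loop is shown here because it marks this gene family in the sequence itself. A 6-base stem that begins GG, a 4-base loop that begins TT and a perfectly paired 3′ stem were searched in GENCODE M21 transcripts of the mm10 build. It was found within 100 bases after the stop codon in 41 of the 49 histone genes whose annotated 3′ untranslated region holds at least 16 bases, and in 13 of 21082 other coding genes (0.062%). The 6 kinds follow, 1 gene for each, as DNA letters 5′ to 3′, with the stem-loop in capitals and the flanks in lower case.
H2bc8: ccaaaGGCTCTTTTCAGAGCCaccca
H3c6: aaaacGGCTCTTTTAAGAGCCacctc
H2ac20: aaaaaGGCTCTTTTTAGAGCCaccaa
H4c8: ccaaaGGCCCTTTTCAGGGCCgccca
H4c14: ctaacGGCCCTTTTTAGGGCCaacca
H4c2: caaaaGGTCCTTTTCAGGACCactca
The H2bc8 kind was the commonest, in 24 genes of H1, H2A, H2B and H3, and the H3c6 kind was in 6. The H2ac20 kind was in that gene alone. All 10 stem-loops found in H4 genes had another stem: the H4c8 kind in 6 genes, the H4c14 kind in 2 and the H4c2 kind in 2 (H4c2 and H4c11). No match says only that these letters are absent from the annotated end, which was often cut short.

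Of the 67 genes, 57 lie on chromosome 13 and 10 on chromosome 3 (RefSeq, GRCm38.p6). One cluster of 24 genes spans chr13:21715711-22043658, and one of 32 genes spans chr13:23531044-23934913. The chromosome 3 genes span chr3:96219885-96270192, and Hist1h2al stands alone at chr13:51200084-51203066. RefSeq lists H2ac14, H2ac5-ps and Hist1h2al as pseudogenes.

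Many copies share sequence. The GENCODE transcripts were cut into overlapping windows of 150 bases. Of 66 genes, 13 had every window to themselves and 25 had under 50% of windows to themselves. H2ac18, H2ac19, H2bc18, H3c13 and H3c14 had none. How reads that map to several places were counted is not given in the sources used here, so values of single copies are uncertain where windows are shared.

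Levels between genes are given in TPM, which divides by annotated gene length. H4 genes stood highest: H4c12 had a mean of 2351 TPM over the 24 libraries, H4c8 1796 and H4c1 1741. In H2B, H2bc8 had 1251 TPM, H2bc13 819 and H2bc3 783. In H3, H3c6 had 1075 TPM, H3c8 806 and H3c13 676. In H1, H1f1 had 1278 TPM, H1f5 1066 and H1f2 959, and these 3 made up 82.8% of the class. In H2A, the gene listed as a pseudogene, Hist1h2al, was highest at 932 TPM, ahead of H2ac15 at 669 and H2ac4 at 387. The top 3 genes held 61.2% of the H2A sum, 51.8% of H4, 51.0% of H2B and 41.1% of H3.

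TPM ranks lean on annotated length. The reads behind 1 TPM, relative to the median histone gene, were 14.1 times as many for H1f3 (whose annotation runs past the coding part), 2.97 for H1f2 and 0.60 for H4c12. H1f3 was thus at 209 TPM with 510546 reads over all libraries, against 492517 reads for H1f2 at 959 TPM. Genes with 100 TPM or more numbered 5 of 6 in H1, 8 of 19 in H2A, 10 of 17 in H2B, 10 of 12 in H3 and 11 of 12 in H4. H2ac18 and H3c14 had 0 reads in all 24 libraries. Both are chromosome 3 genes with no window of their own.

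**Figure D1:**
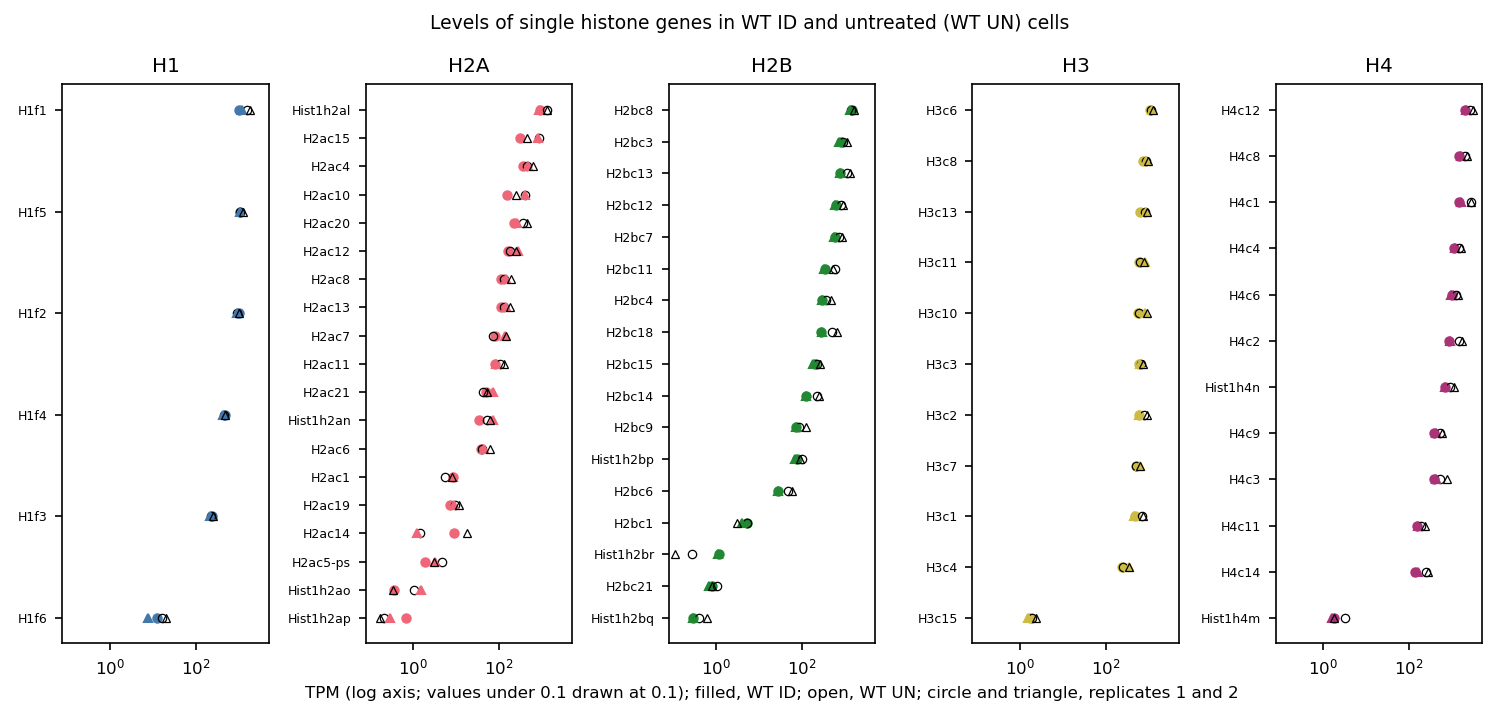
TPM (log axis) of single histone genes by class in WT ID (filled) and WT UN (open), 1 symbol per replicate, with genes ordered by their WT ID mean and genes at 0 in WT ID left out. Most H4 and H2B genes have their open symbols to the right of the filled ones, while the H2A genes of WT ID show wide gaps between replicates.

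Untreated cells had the highest histone level of the 12 groups. The 66 genes summed to 36203 and 41417 TPM in WT UN, to 26803 and 25937 in WT IAA, and to 27718 and 30449 in WT ID. Both untreated libraries were above every other wild-type-line library. Among the substituted lines the 18 libraries ran from 26594 (H455R) to 36817 TPM (K365T replicate 2), and K365T replicate 2 was the one library above the lower untreated value.

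By class, H4 summed to 13913 and 15992 TPM in WT UN against 9623 and 10316 in WT ID. H2B summed to 6962 and 8075 TPM against 5560 and 5235. For H1 the values were 4236 and 4895 against 3885 and 3804. In these 3 classes the untreated libraries lay above the WT ID libraries. So they did in H2A, at 4153 and 4184 TPM against 2633 and 3811. In H3, at 6939 and 8271 against 6017 and 7283, the groups overlapped. The WT ID replicates stood far apart in H2A and H3.

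**Figure D2:**
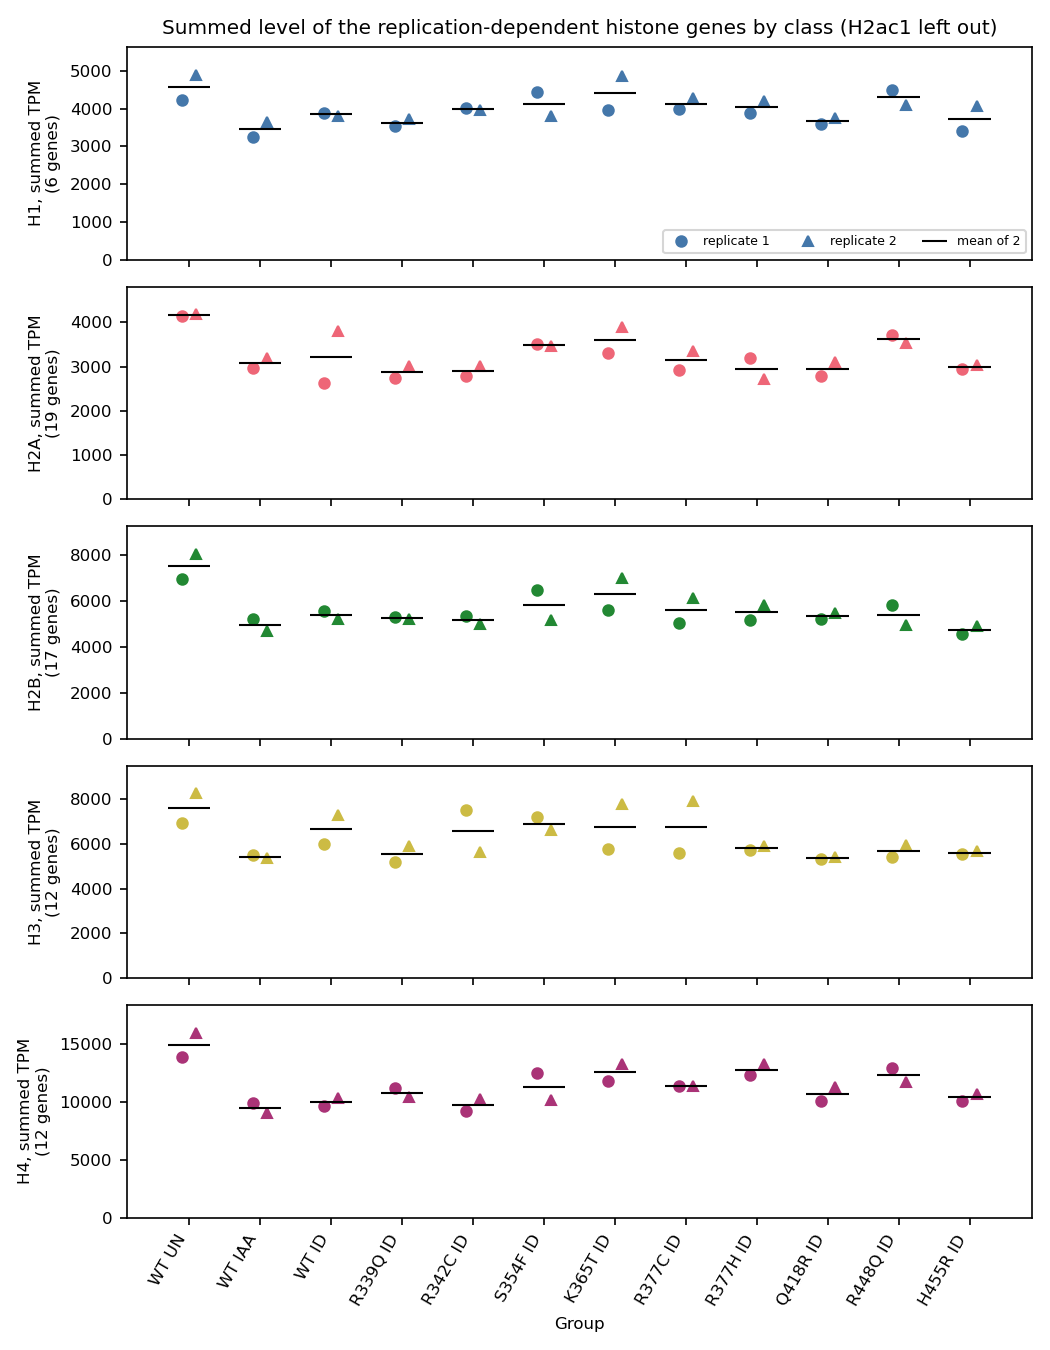
Summed TPM of each histone class (y axis, from 0) in each group (x axis), with circles for replicate 1, triangles for replicate 2 and bars for the mean of 2. The WT UN mean is highest in every class, though in H1, H2B and H3 some substituted-line libraries lie above the lower WT UN library. The WT ID replicates differ most in H2A (2633 and 3811) and H3 (6017 and 7283).

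Gene by gene, 62 of the 66 genes passed a mean of 0.5 TPM over the 4 libraries. Both untreated libraries were above both WT ID libraries for 33 of the 62, against 20.4% of 18974 genes, and below them for 1 (Hist1h2br, under 2 TPM), against 47.1%. H4 gave 11 of 12, H2B 12 of 16, H3 4 of 11, H2A 4 of 17 and H1 2 of 6. The median log2 ratio of mean TPM was 0.40 for the 62 genes, 0.50 for H4 and 0.47 for H2B, against −0.17 for all genes.

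The differences were modest in size. At 2-fold or more with no overlap, 1 gene was higher (against 2.82% of all genes) and 1 lower, again Hist1h2br (against 9.82%). The higher one was H2bc18, a chromosome 3 H2B gene with no window of its own, whose windows are shared only with genes outside those counted here. It was at 485 and 629 TPM in WT UN and 271 and 285 in WT ID, a log2 ratio of 1.00. H4c1 (0.86) and H4c2 (0.85) came near that size. The count higher was 4 when WT UN replicate 1 was left out and 0 when replicate 2 was. Leaving out the WT ID replicates gave 2 (replicate 1) and 4 (replicate 2). The count lower was 2 without either replicate 1. The untreated libraries stand in a table normalized separately, so no test was the main result here. edgeR's quasi-likelihood test on the recovered reads of all 24 libraries called 35 of 60 genes higher (Benjamini-Hochberg adjusted p under 0.05), against 19.5% of 18713 genes, and 0 lower, against 21.0%. It called 11 of 12 H4 genes and 12 of 15 H2B genes.

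Other values moved beside these. The 15 small structural RNAs summed to 82600 and 94000 TPM in WT UN and 68600 and 75200 in WT ID. Slbp, which binds the histone stem-loop, was at 72.8 and 67.8 TPM in WT UN and 46.0 and 44.6 in WT ID. Lsm11, a subunit of the U7 particle that cuts histone pre-mRNA, stood the other way, at 6.39 and 6.03 TPM in WT UN and 15.6 and 14.7 in WT ID. Hinfp, which binds H4 promoters, was at 17.8 and 16.6 against 22.3 and 19.0, and Casp8ap2, a processing factor, at 59.7 and 62.1 against 53.7 and 55.1, while Npat and Lsm10 overlapped between the 2 groups. The 38 DNA replication and S-phase genes listed summed to 6070 and 5680 TPM in WT UN and 4830 and 4640 in WT ID. Their part in the histone difference was not tested.

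All other comparisons set a treated group against WT ID on log2(normalized count + 1), with limma's moderated test in 1 fit of 22 libraries and adjustment over 18713 genes. A gene was called at an adjusted p under 0.05. The 10 comparisons share the same 2 WT ID libraries, so their results are not independent of each other. The value after ± is the standard error of a log2 fold change.

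WT IAA, with CTCF degraded and no transgene induced, had 3 histone genes lower and 0 higher of 60, or 5.00% lower. Over all genes 10.7% were lower and 9.96% higher. At an unadjusted p under 0.05 limma had 0 higher and 8 lower, and edgeR called 0 higher and 3 lower. The median log2 fold change was −0.18, and −0.33 for H3, in which 0 of 11 genes lay above 0.

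The 3 genes called lower in WT IAA were H3c13, H4c14 and H3c2. H3c13 was at 434 and 483 TPM in WT IAA and 620 and 853 in WT ID, and fell by 0.68 ± 0.18 (log2, adjusted p = 0.0119). H4c14 fell by 0.45 ± 0.15 and H3c2 by 0.37 ± 0.12. Without WT ID replicate 2 the count lower was 0 and the count higher 2. Leaving out WT IAA replicate 1 also gave 0 lower, and leaving out WT ID replicate 1 gave 7.

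R448Q had the most histone genes higher, 17 of 60 (28.3%), against 22.8% of all genes. It had 0 lower, against 23.1%, with 0 also at an unadjusted p under 0.05 in limma and by edgeR. The median was 0.21, and 0.54 for H4, where 11 of 12 genes were above 0 and 5 were called: H4c4, H4c1, H4c2, H4c3 and H4c14. H2B had 6 of 15 genes higher, H1 3 of 6, H2A 2 of 16 and H3 1 of 11. With 1 library left out, 12 to 16 genes were higher, and 0 to 2 lower, the 2 without WT ID replicate 1.

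H4c14 was at 333 and 258 TPM in R448Q and at 139 and 161 in WT ID, with no overlap. Its log2 fold change of 1.14 ± 0.15 (adjusted p = 3.43e-06) was the largest in this comparison after the testis pair. H2ac20 reached 425 and 429 TPM against 226 and 263 (0.98 ± 0.17). H2bc18, with no window of its own, reached 506 and 459 against 271 and 285 (0.96 ± 0.16). All 3 lie on chromosome 3, whose 928 tested genes had a median shift of 0.46 in R448Q, against at most 0.07 in size in the other 9 comparisons. Refitting with values centred by chromosome gave 16 genes higher and 1 lower in R448Q. The part of that shift in each of these 3 changes was not tested separately. On chromosome 13, where the shift was −0.01, H4c3 was at 635 and 621 TPM against 386 and 427 (0.80 ± 0.13).

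K365T had 13 of 60 histone genes higher (21.7%, against 17.7% of all genes) and 2 lower (3.33%, against 14.2%). Of those higher, 5 were in H4, 5 in H2B, 2 in H1 and 1 in H2A. All 12 H4 genes lay above 0, with a median of 0.42. H2bc18, with no window of its own, was at 474 and 516 TPM, above both WT ID libraries (0.91 ± 0.16, adjusted p = 3.04e-04). H4c3 was at 585 and 690 TPM (0.73 ± 0.13).

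The 2 genes lower in K365T were H2ac21, at 37.4 and 36.6 TPM against 50.0 and 74.6 in WT ID (fell by 0.64 ± 0.21), and H2bc7, at 364 and 438 TPM against 567 and 552 (fell by 0.41 ± 0.13). The K365T counts moved with single libraries. The count higher was 21 without K365T replicate 1, 4 without K365T replicate 2 and 4 without WT ID replicate 1. The count lower was 1 without K365T replicate 2 or WT ID replicate 1, and 0 without either of the others. Replicate 2 of K365T also had the lowest mitochondrial share of all libraries (1.22%, against 2.67% in replicate 1), and its part was not tested.

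R377H had 5 of 60 genes higher (8.33%, against 14.4% of all genes) and 0 lower (against 10.7%), with 2 lower at an unadjusted p under 0.05 in limma and 0 by edgeR. H4c3 led those outside the testis pair, at 622 and 652 TPM against 386 and 427 in WT ID (0.74 ± 0.13, adjusted p = 3.36e-04). The others were H4c8, H4c4, H2bc15 and the testis gene H2bc1. All 12 H4 genes were above 0 (median 0.39), while the medians of H2A and H3 were −0.03 and −0.04. Leaving out WT ID replicate 1 gave 2 higher and 2 lower. Without R377H replicate 1 the count higher was 3, and without replicate 2 it was 2.

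R377C, a different substitution of the same residue, had 2 genes higher (3.33%, against 4.67%) and 0 lower (against 3.43%), with 0 lower also at an unadjusted p under 0.05 in limma and by edgeR. The genes higher were H4c3, at 567 and 569 TPM (0.47 ± 0.13), and H2bc1. H4c3 was not called without either R377C replicate or without WT ID replicate 1, and 1 gene was then higher. Without R377C replicate 2 or WT ID replicate 1, 1 gene was lower. All 12 H4 genes again lay above 0, with a median of 0.16.

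Q418R had 3 genes higher (5.00%, against 11.2%) and 2 lower (3.33%, against 13.8%). H4c3 was at 500 and 551 TPM (0.46 ± 0.13), and H2bc6, an H2B gene, at 36.1 and 36.7 against 28.0 and 27.4 (0.49 ± 0.16). H2ac21 was at 29.2 and 30.6 TPM against 50.0 and 74.6 in WT ID and fell by 0.94 ± 0.21 (adjusted p = 0.00246). H3c13 was at 429 and 507 TPM against 620 and 853 and fell by 0.55 ± 0.18. Without WT ID replicate 2 the count lower was 0. The count lower was 1 without Q418R replicate 1 and 4 without WT ID replicate 1, and the count higher was 1 without Q418R replicate 2.

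H4c3 was called higher in 5 of the 10 comparisons, more than any other histone gene outside the testis pair. In the rest it was at 541 and 494 TPM (R339Q), 511 and 533 (H455R), 552 and 420 (S354F), 385 and 447 (R342C) and 396 and 416 (WT IAA). In R339Q and H455R both libraries also lay above WT ID but did not pass (adjusted p = 0.0902 and 0.0794). H4c3 had 92.4% of its windows to itself. Its 250 bases before the RefSeq start, chr13:23698459-23698708 on the minus strand, are shown for that reason, with CCAAT motifs in capitals.
H4c3: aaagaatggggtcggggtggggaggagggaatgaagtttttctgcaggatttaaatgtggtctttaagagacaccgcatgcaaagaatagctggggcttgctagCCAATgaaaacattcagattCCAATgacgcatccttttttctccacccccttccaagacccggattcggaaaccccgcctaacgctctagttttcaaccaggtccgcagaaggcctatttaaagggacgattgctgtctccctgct

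**Figure D3:**
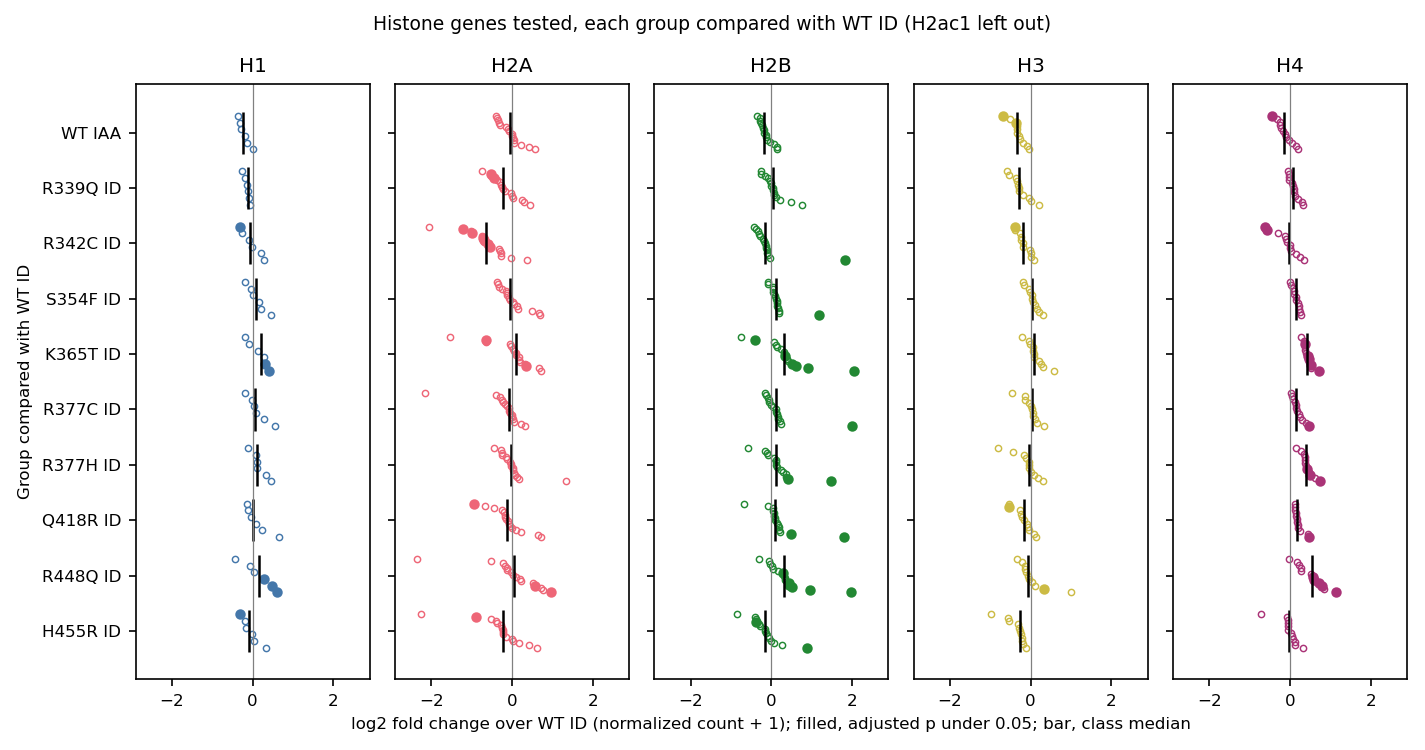
Log2 fold change over WT ID (x axis) of every tested histone gene but H2ac1, by class (panel) and group (y axis), with filled points for an adjusted p under 0.05 and bars for the class median. In H4 the bars reach 0.54 in R448Q, 0.42 in K365T and 0.39 in R377H, and in H2A the bar is at −0.65 in R342C.

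R342C went the other way, with 10 of 60 genes lower (16.7%, against 13.3% of all genes) and 1 higher (1.67%, against 10.0%). Of the 10, 6 were H2A genes, and the H2A median was −0.65, with 1 of 16 genes above 0. Among these 6, H2ac20 had 100% of windows to itself, H2ac8 75.5%, H2ac21 47.5%, H2ac11 34.5%, Hist1h2an 27.5% and H2ac12 15.2%. Copies that share windows may not be independent of each other. H2ac21 was at 35.6 and 22.4 TPM against 50.0 and 74.6 in WT ID and fell by 1.21 ± 0.21 (adjusted p = 4.93e-04). Hist1h2an was at 23.7 and 30.3 TPM against 34.5 and 71.5 and fell by 0.99 ± 0.26. H2ac20 was at 123 and 202 TPM against 226 and 263 and fell by 0.73 ± 0.17.

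The R342C counts moved with single libraries. WT ID replicate 2 had 3811 TPM of H2A and replicate 1 had 2633, while R342C had 2783 and 3021, between the 2. Without WT ID replicate 2, 1 gene was lower and 2 higher. Without R342C replicate 1, the deepest library of the series, 1 gene was lower, and without R342C replicate 2, 2 were higher. The 2 R342C libraries also differed in H4c12, at 1294 and 2598 TPM, and in H3c13, at 1055 and 641.

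R339Q had 0 genes higher (against 11.8%) and 2 lower (3.33%, against 9.7%). At an unadjusted p under 0.05 limma had 2 higher and 10 lower, and edgeR called 0 higher and 4 lower. The genes lower were H2ac8, at 81.2 and 102 TPM against 113 and 147, and H2ac4, at 279 and 341.7 against 372 and 466. They fell by 0.52 ± 0.18 and 0.46 ± 0.14. The count lower was 8 without WT ID replicate 1, 1 without R339Q replicate 2 and 0 without R339Q replicate 1. Leaving out WT ID replicate 2 gave 0 lower and 1 higher.

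H455R had 3 genes lower (5.00%, against 10.5%) and 1 higher (1.67%, against 12.6%). H2ac7 was at 60.1 and 55.2 TPM against 79.2 and 138 and fell by 0.89 ± 0.28, H2bc7 fell by 0.38 ± 0.13 and H1f3 by 0.32 ± 0.11. All 11 H3 genes lay below 0, with a median of −0.26. Leaving out WT ID replicate 2 gave 0 lower. The gene higher was H2bc1, which was not called without H455R replicate 2 or either WT ID replicate.

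S354F had 1 gene higher, H2bc1 (1.67%, against 5.49%), and 0 lower (against 4.31%), with 0 lower also at an unadjusted p under 0.05 in limma and by edgeR. H2bc1 was not called without S354F replicate 1 or WT ID replicate 2. Leaving out WT ID replicate 1 gave 1 lower. The H4 median was 0.15, with 11 of 12 genes above 0. S354F replicate 1 summed to 34095 TPM of histone RNA and replicate 2 to 29259, beside a WT ID mean of 29084.

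In the 10 limma comparisons with WT ID, the share of histone genes higher passed that of all genes in K365T and R448Q, and the share lower passed it in R342C. Even there the shares were near the background, and in the other cases of these 10 comparisons they lay under it. Medians over all tested genes lay between −0.026 and 0.005.

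The testis pair stood apart from the rest of the family. H2ac1 (chr13:23934437-23934913, plus strand) and H2bc1 (chr13:23933725-23934156, minus strand) encode the testis forms of H2A and H2B and point away from each other, with 280 bases between their starts. H2ac1 had every 150-base window to itself and H2bc1 88.1%. The H2ac1 promoter is shown because both genes start from this interval: its 250 bases before the RefSeq start, chr13:23934187-23934436, plus strand, cover most of the gap to the H2bc1 start. Capitals mark, in order, an AC box, a TATA box on the other strand, 2 CCAAT boxes on the other strand, an octamer on the other strand, a CCAAT box on each strand and a TATA box.
H2ac1: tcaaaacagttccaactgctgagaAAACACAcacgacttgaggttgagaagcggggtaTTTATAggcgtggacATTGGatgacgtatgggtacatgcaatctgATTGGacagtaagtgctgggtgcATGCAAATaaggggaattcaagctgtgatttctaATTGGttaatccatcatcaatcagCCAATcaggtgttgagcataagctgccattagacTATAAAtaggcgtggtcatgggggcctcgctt
The 250 bases hold none of the CTCF motif cores searched (a form spelled AGGGGGC, another form spelled AGGTGGC and a further form spelled AGATGGC), while the H2bc1 window, which runs to 50 bases after its start, holds a match.

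H2ac1 was low in the wild-type line: 5.70 and 7.93 TPM in WT UN, 9.80 and 14.9 in WT IAA, and 8.76 and 8.38 in WT ID. It was higher in all 9 substituted lines, where the 18 libraries ran from 17.2 to 47.7 TPM and all lay above the 6 wild-type-line libraries. The highest were K365T (32.2 and 47.7 TPM), R342C (37.7 and 37.8) and R377C (30.9 and 43.9). Next came Q418R (26.9 and 29.0), R377H (22.7 and 32.7) and R448Q (25.1 and 26.4). The lowest were S354F (a mean of 21.2 over its 2 libraries), R339Q (21.3 and 19.7) and H455R (17.2 and 17.7), and neighbours in this order overlapped except R377C and Q418R, R448Q and S354F, and R339Q and H455R.

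The test against WT ID called H2ac1 higher in 9 of 9 substituted lines. These 9 tests share the same 2 WT ID libraries, and all 6 wild-type-line libraries come from 1 line. For both genes of the pair, a low level particular to that line cannot be told apart from an effect of the substitutions. Log2 fold changes ran from 0.98 ± 0.24 in H455R (adjusted p = 0.006) through 1.22 in R339Q, 1.27 in S354F, 1.73 in R448Q, 1.74 in R377H, 1.77 in Q418R, 2.01 in R342C and 2.07 in R377C to 2.24 ± 0.24 in K365T (adjusted p = 1.37e-06). In WT IAA it was 0.47 and did not pass. All 9 calls held under each of 11 alternative settings, with the highest adjusted p at 0.0428, for H455R without WT ID replicate 1. The values are low in reads, from 22 in a wild-type-line library to at most 346 in a substituted one.

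H2bc1 was lower per length than H2ac1 and also higher in the substituted lines. It was at 5.27 and 2.97 TPM in WT UN, 3.38 and 4.31 in WT IAA, and 5.19 and 3.97 in WT ID. The 18 substituted-line libraries ran from 7.44 (H455R) to 20.9 TPM (R377C), again all above the 6 wild-type-line libraries. It was called higher in 8 of 9 lines, with log2 fold changes from 0.89 ± 0.28 in H455R to 2.05 ± 0.28 in K365T (adjusted p = 2.05e-05). In R339Q, at 8.39 and 7.57 TPM, it was 0.76 ± 0.28 and did not pass, and in WT IAA it was −0.25. The ratio of H2ac1 to H2bc1 TPM lay between 1.48 and 2.60 in the substituted lines and between 1.08 and 3.45 in the wild-type line.

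The third testis member, H1f6, did not move with the pair. It was at 12.8 and 7.65 TPM in WT ID, and the substituted lines ran from 5.55 to 18.0 TPM, with 0 of 18 libraries above the wild-type-line range and 0 limma calls in 10 comparisons (1 at an unadjusted p under 0.05, in Q418R, and 0 by edgeR). Its highest value was in an untreated library, 20.7 TPM.

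**Figure D4:**
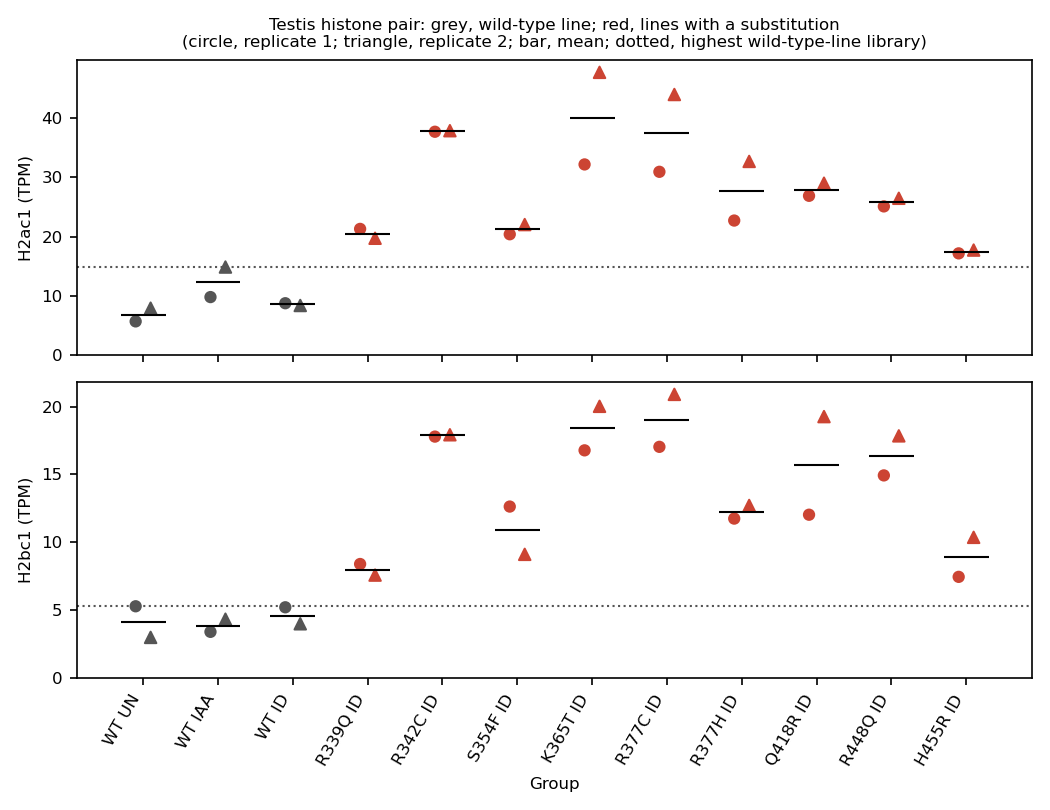
TPM of H2ac1 and H2bc1 (y axes, from 0) in each library by group, wild-type line in grey and substituted lines in red, with the highest wild-type-line library as a dotted line. All 18 red points lie above that line in both panels, from 17.2 to 47.7 for H2ac1 and from 7.44 to 20.9 for H2bc1.

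The neighbours of the pair were called in some lines, in both directions. Within 200 kb, 11 other genes were tested, 10 of them histone genes. None was called higher in R339Q, R342C, S354F, R377C, R377H or Q418R. In K365T 2 were higher (H1f1 and H4c2), in R448Q 4 (H1f1, H3c2, H4c1 and H4c2) and in H455R 1 (Carmil1), against 17.7%, 22.8% and 12.6% of all genes. In R342C 3 were lower (H3c3, H4c1 and H4c2) and in R339Q 1 (H2ac4), against 13.3% and 9.7%, and none was lower in the other 7 lines.

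Of 15 spermatocyte and testis markers, 9 were tested. Of the 9, 6 were called higher in R377H (against 14.4% of all genes), 5 in K365T (17.7%) and 5 in R448Q (22.8%). The count higher was 4 in R342C (10.0%) and R377C (4.67%), and 3 in R339Q (11.8%) and Q418R (11.2%). It was 2 in S354F (5.49%) and H455R (12.6%), and 1 in WT IAA (9.96%). In R448Q 2 were lower (against 23.1%), and none in the other 8 substituted lines (against 3.43 to 14.2%). The summed level of the 15 markers was 73.4 and 91.0 TPM in WT UN, 146 to 181 in WT IAA and WT ID, and 132 to 293 in the substituted lines. The late sperm genes Acrv1 and Crisp2 were at 0 in all 24 libraries, Tnp1 in 20 and Prm2 in 19, while the meiotic gene Sycp3 ran from 25.0 to 90.9 TPM. What part these markers share with the pair was not tested.

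H2ac14, which RefSeq lists as a pseudogene, had the widest spread of the rest, and is named after its values were seen. It was at 9.06 and 1.24 TPM in WT ID, 8.54 and 8.45 in R377H, and 0.383 and 0.526 in R448Q. Its 2 replicates differed more than 4-fold in 7 groups, none of its 10 tests passed, and 10.3% of its windows were its own.

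Among genes that act on histone genes, Hinfp was called lower in R448Q and K365T, each with 5 H4 genes called higher. It was at 13.3 and 13.2 TPM in R448Q and 15.5 and 14.8 in K365T, against 22.3 and 19.0 in WT ID, and fell by 0.47 ± 0.07 (adjusted p = 2.12e-05) and 0.37 ± 0.07. In R377H, where 3 H4 genes were called higher, it was at 17.5 and 16.3 TPM and did not pass (−0.20 ± 0.07, adjusted p = 0.0502). It was also called lower in WT IAA, R339Q, S354F and H455R, where no H4 gene was called higher. The calls in WT IAA, R339Q and S354F were lost when WT ID replicate 1 was left out, as they were without WT IAA replicate 2, R339Q replicate 1 and S354F replicate 2. On TPM the Hinfp calls in WT IAA and S354F were lost as well.

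Slbp, the stem-loop binding protein, was at 29.5 and 30.1 TPM in Q418R against 46.0 and 44.6 in WT ID and fell by 0.51 ± 0.10 (adjusted p = 7.66e-04). It fell by 0.36 ± 0.10 in R342C and was higher by 0.36 ± 0.10 in R448Q (52.3 and 51.0 TPM). Npat, the coactivator at histone loci, was called in R448Q alone (0.18 ± 0.06). Casp8ap2, a processing factor, was higher in R448Q (0.29 ± 0.08) and lower in R342C (fell by 0.23 ± 0.08). Lsm11, a U7 subunit, was higher in R377H (0.57 ± 0.09), K365T (0.56 ± 0.09) and R342C (0.29 ± 0.09), and Lsm10, its partner, was called in none of the 10. With values centred by chromosome, Lsm11 was 0.03 in R377H, 0.19 in K365T and 0.23 in R342C and not called in any of them. Its R342C call was also lost without the filter on low values. With any 1 library left out, the Npat call and the Lsm11 call in R342C were lost. The R342C calls of Slbp and Casp8ap2 were lost without R342C replicate 1 or WT ID replicate 2, and the R448Q call of Casp8ap2 without WT ID replicate 1. The R342C call of Casp8ap2 was also lost on TPM, with edgeR and without the filter on low values.

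Of 27 listed genes of histone transcription and pre-mRNA processing, 13 were higher and 3 lower in R448Q, where 22.8% of all genes were higher and 23.1% lower. In R342C 1 was higher and 9 lower, against 10.0% and 13.3% of all genes. In the other 8 comparisons 0 to 5 were higher and 0 to 6 lower, where 4.67 to 17.7% and 3.43 to 14.2% of all genes were. Of 22 histone chaperones found, 10 were higher and 3 lower in R448Q (against 22.8% and 23.1% of all genes). In R342C 0 of these chaperones were higher and 10 lower (against 10.0% and 13.3%). Of 11 replication-independent histone variants, 5 were higher and 3 lower in R448Q (against 22.8% and 23.1% of all genes). In K365T 4 of them were higher and 0 lower (against 17.7% and 14.2%). In Q418R 2 were higher and 5 lower (against 11.2% and 13.8%).

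DNA replication and S-phase genes were counted in the same way. Of 38 listed, 19 were higher and 3 lower in R448Q (against 22.8% and 23.1% of all genes) and 14 higher and 1 lower in K365T (against 17.7% and 14.2%), the 2 lines with most histone genes higher. In R342C 0 were higher and 19 lower (against 10.0% and 13.3%), and in H455R, where 3 histone genes were lower, 2 were higher and 22 lower (against 12.6% and 10.5%). In WT IAA 0 were higher and 7 lower (against 9.96% and 10.7%). The part of cell-cycle position in the histone values was not tested.

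Promoter letters differed by class. In the 250 bases before to 50 after the RefSeq start, on both strands, CCAAT was in 50 of 58 histone promoters found (86.2%, against 37.4% of 32851 promoters): in every one of 6 H1, 16 H2A, 15 H2B and 10 H3 promoters, and in 3 of 11 of H4. TATAAA was in 58.6% against 13.6%. The octamer ATTTGCAT was in 12 (20.7%, against 1.74%), 6 of them H2A and 6 H2B. The AC box AAACACA was in 5 of 6 H1 promoters, and in 15.5% of all 58 against 7.18%. The CTCF motif cores named above were in 12.1%, against 21.4%. A match is a description of letters only.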

How the data were processed

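Signal in 24 total RNA libraries was deposited by the authors as normalized counts (gene counts over 1 size factor per library, the 2 untreated libraries in a table scaled separately) and as TPM, which the authors scaled by gene length. Trim Galore, STAR, DESeq2 and mm10 are named in the submitters' processing notes. The sources used here give no version, read counter, annotation or handling of multiply mapped reads. The size factor of each library was inferred from the steps between its values and used to recover whole reads, 27.8 to 77.1 M per library. Low values matched whole reads within 0.001 normalized counts, and higher values were held to a looser limit.

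On the log2(normalized count + 1) scale, limma was fitted to the genes whose mean over 22 libraries reached 10 (limma 3.58.1, R 4.3.3, 11 residual degrees of freedom, Benjamini-Hochberg over 18713 genes). This left 61 histone genes. H2ac18 and H3c14 had no reads, and Hist1h2ao, Hist1h2ap, Hist1h2bq and Hist1h2br were too low. Untreated cells were compared by log2 ratios of mean TPM + 0.1, and with edgeR 4.0.16. The test was tried on simulated data.

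Named genes were the 3 highest per class, the 3 largest called changes each way per comparison, the testis genes, 6 regulators and genes without reads. H2ac14 and lists of 5 or fewer called genes were named after their values were seen. Members and lists were chosen with earlier results of these data known. Sequences come from RefSeq (GRCm38.p6, 67 genes matched) and GENCODE M21 (66 matched). Alternatives were a pseudocount of 10, no filter, a mean of at least 50, TPM, edgeR, a replicate block, centring by chromosome and leaving out each library.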

Additional observations from a re-analysis of the deposited data

How the results depend on the processing

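Counts are of 60 histone genes higher or lower than in WT ID, and alternatives not named kept a count within 1.5 times. On TPM, WT IAA had 1 lower, R339Q 2 higher and 1 lower, K365T 7 higher, R377H 3 higher, R448Q 1 lower and H455R 2 higher. Without the filter on low values, 0 were lower in R339Q, 6 higher in K365T, 1 higher in R377C, 3 higher in R377H, 1 lower in Q418R and 0 lower in H455R. edgeR gave 4 lower in R339Q. With centring by chromosome, R339Q had 1 lower, R448Q 1 lower, and H455R 2 higher and 1 lower. For untreated cells, 14 were higher at 1.5-fold and 35 by edgeR, and 0 lower by edgeR or with a pseudocount of 1. The cause of these shifts was not tested.

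With a replicate block, R377H had 1 lower and H455R 5 lower, and no other count moved by over 1.5 times. Replicate numbers did not pair the libraries: the correlation of same-numbered deviations ran from −0.248 to 0.382 over 55 pairs of groups, and 10 were over 0.1. A further count took the 36 genes with at least 70% of windows to themselves, a limit chosen after seeing the data. The counts lower were then 1 in WT IAA, 1 in R339Q, 5 in R342C, 1 in K365T and 0 in Q418R. Fewer genes enter this count. The 2 genes lower in Q418R, H2ac21 and H3c13, had 47.5% and 0% of windows to themselves. The part of shared windows in these counts was not tested.

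With each library left out in turn, genes higher ran from 0 to 2 in WT IAA, 0 to 1 in R339Q, 1 to 2 in R342C, 0 to 1 in S354F, 4 to 21 in K365T, 1 to 2 in R377C, 2 to 5 in R377H, 1 to 3 in Q418R, 12 to 16 in R448Q, 0 to 1 in H455R and 0 to 4 in WT UN. Genes lower ran from 0 to 7 in WT IAA, 0 to 8 in R339Q, 1 to 14 in R342C, 0 to 1 in S354F, K365T and R377C, 0 to 2 in R377H, 0 to 4 in Q418R, 0 to 2 in R448Q, 0 to 4 in H455R and 1 to 2 in WT UN. No named gene reversed its sign while called. Low read numbers limit H2ac1 and H2bc1, and shared windows limit single copies.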
